A study of Trichoplusia ni and Spodoptera exigua with 20 samples.

Results

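The genes described here are 300 genes of *S*. *exigua*, the beet armyworm, whose transcripts were plainly measured in the fat body of every control pool and nearly lost in every pool of larvae that consumed an HDAC inhibitor. They were selected from the 12380 genes of the normalized expression table by their measured values. A member had a mean normalized value of at least 20 over the 3 control libraries, and its lowest control library exceeded its highest treated library by at least 2 on the scale of log2(value + 1). The 100 genes with the highest control mean were left out. Of the 3842 genes with a control mean of at least 20, 337 met these terms, and the 300 with the largest mean difference between control and treated libraries were kept. The fall from control is therefore what chose these genes, and it is reported as a description only.

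Each library was made from poly(A)-selected RNA of the pooled fat bodies of 3 to 5 wild-type (WT) larvae collected at about Day 10. The 3 SFN libraries came from larvae on an artificial diet surfaced with 70 mM sulforaphane (SFN). The 3 TSA libraries came from larvae whose diet carried 330 µM trichostatin A (TSA). The 3 control libraries came from larvae whose diet received the carrier alone, ethanol (EtOH), which was evaporated before feeding in all groups. Pooling means that larvae within a library cannot be told apart, and the doses of the inhibitors differ, so the compounds are compared as fed.

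Histone deacetylases (HDACs) remove acetyl groups from histones, which packs chromatin more tightly and tends to silence the genes within it. SFN is an isothiocyanate of cruciferous plants, and TSA is a hydroxamic acid widely used as a broad inhibitor of zinc-dependent HDACs. The insect fat body is the organ of intermediary metabolism and storage, with roles that in vertebrates fall to liver and adipose tissue. The tables name genes by locus tag only, and 0 of these tags could be matched to a gene name in the references used here. Neither the functions of the 300 genes nor the defining markers of fat body or of other tissues could therefore be examined.

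Between 6352561 and 27502512 reads were counted on genes in the SFN libraries, 25488363 to 28543809 in the TSA libraries and 29910259 to 35157218 in the controls. SFN replicate 2 was the shallowest library. A single read there corresponded to a normalized value of 0.114, against 0.0291 to 0.0455 in the other libraries, so its low values are the coarsest.

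The 300 genes were moderately expressed in controls and close to the limit of detection under both inhibitors. Their control means ranged between 20.3 and 955 with a median of 38.7. The mean was under 50 in 190 genes, between 50 and 100 in 67, and at least 100 in 43. The median normalized value over the 300 genes was 0.0594, 0.227 and 0.0666 in SFN replicates 1 to 3. In the TSA replicates it was 0.541, 0 and 0, and in the control replicates 24.0, 29.7 and 61.5. In read numbers the median gene had 2 reads in each SFN library, 14, 0 and 0 in the TSA libraries, and 707, 720 and 1522 in the controls. TSA replicate 1 thus retained more of these transcripts than the other TSA replicates, and control replicate 3 held more of them than the other controls.

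Over the remaining 3542 genes with a control mean of at least 20, which include the 100 most abundant genes and the 37 and 2 genes that met the gap but were not kept (beyond the limit of 300, and among the 100 highest), the median value lay between 43.3 and 50.9 in the SFN libraries, between 48.7 and 57.2 in the TSA libraries and between 54.7 and 55.2 in the controls. Of all 3842 such genes, 22.4% had every treated library under every control library, and 8.82% had a gap of at least 2. In bulk tissue, fewer cells of a type and less RNA per cell cannot be told apart. The study reports smaller *S*. *exigua* larvae after SFN in the diet. The size and stage of the pooled larvae were not compared here, and their part in these levels was not tested.

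**Figure D1:**
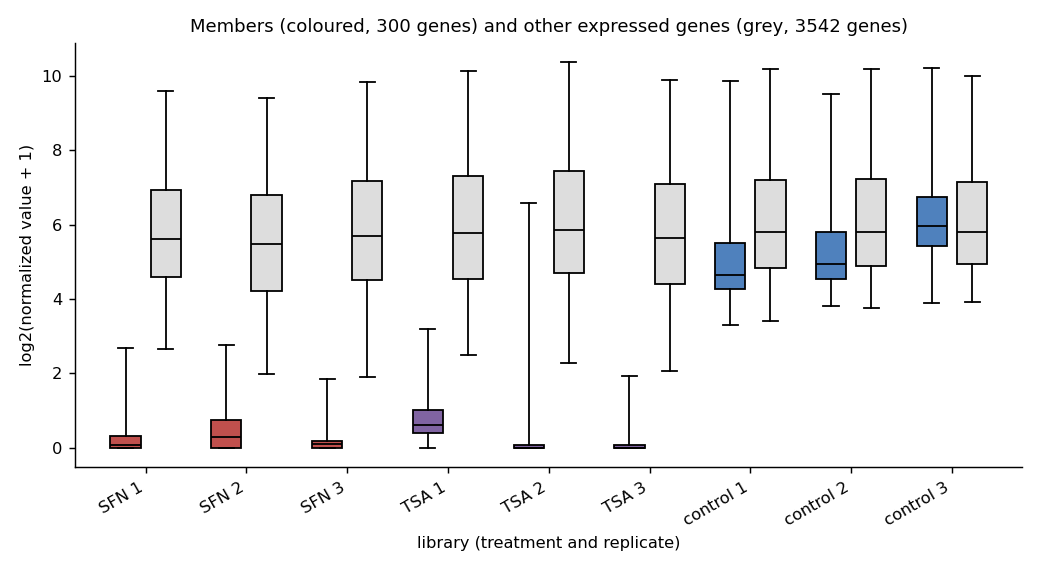
Level of the 300 genes (coloured boxes) and of the 3542 other genes with a control mean of at least 20 (grey boxes) in each library, as log2(normalized value + 1). Boxes span the quartiles with the median as a line. Whiskers reach the lowest and highest gene for the coloured boxes and the 5th and 95th percentiles for the grey ones. The coloured boxes lie near 0 in the SFN and TSA libraries and overlap the grey boxes in the controls, with control 3 the highest.

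Summed over the 300 genes, the transcripts took 0.00807%, 0.0213% and 0.00380% of the counted reads in the SFN libraries. Their share was 0.0268%, 0.0102% and 0.00323% in the TSA libraries, against 1.10%, 1.09% and 2.57% in the controls. The exact Poisson 95% intervals of the treated shares, which cover counting error only, were 0.00772 to 0.00843%, 0.0202 to 0.0225% and 0.00357 to 0.00403% for SFN, and 0.0261 to 0.0274%, 0.00980 to 0.0106% and 0.00303 to 0.00345% for TSA. The highest treated share lay below the lowest control share, as the selection requires of each gene. In TSA replicate 2 most of the sum came from a single gene, HF086_001952. Without it the share there was 0.00227%, while the share in the other treated libraries was 0.00734%, 0.0209% and 0.00351% for SFN and 0.0263% and 0.00317% for TSA replicates 1 and 3.

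Reads remained for many of the transcripts. The number of the 300 genes with 0 reads was 90, 80 and 135 in the SFN libraries and 3, 215 and 189 in the TSA libraries, against 0 in each control. Among the 3542 other genes, 7 to 17 had 0 reads in an SFN library, 7 to 36 in a TSA library and 1 in each control. Yet 0 of the 300 genes had 0 reads in all 6 treated libraries. Their reads over these libraries together numbered between 2 and 2499, with a median of 24.5, and 52 genes had at most 10. There were 26 genes that had 0 reads in all SFN libraries and 3 that had 0 reads in all TSA libraries. At this depth 0 reads in a library allow a normalized value of up to 0.0891, 0.341 and 0.0999 in the SFN libraries and 0.116, 0.136 and 0.0874 in the TSA libraries, taking 3 reads as the limit.

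Relative to control, the median gene retained 0.283% of its level under SFN (at most 4.74%) and 0.471% under TSA (at most 4.19%). The level under SFN was below 1% of control in 261 genes, and the level under TSA in 273. With genes at 0 reads set to the limit of 3 reads over the group, the median log2 ratio of SFN to control was -8.47 (range -12.74 to -4.40), against -0.34 over the 3542 other genes. The same ratio of TSA to control had a median of -7.73 (range -11.21 to -4.58), against -0.10 over the other genes. Both ratios share the 3 control libraries.

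Counts were fitted in edgeR for all 12380 genes, with the treatment and the replicate number as terms, and tested by quasi-likelihood with Benjamini-Hochberg adjustment over all genes. Each SE given below was derived from the test, as the absolute log2 fold change divided by the square root of the test statistic. By this test 243 of the 300 genes were lower under SFN than in control at an adjusted p under 0.05, beside 6.44% of all genes tested. Under TSA 209 were lower, beside 6.29% of all genes. Because the same contrast selected the genes, nothing further is read from these counts, or from the adjusted p of single genes against control given below. Among the 300 genes, 203 passed in both comparisons and 51 in neither. How many of all genes passed in both was not counted. The unadjusted p of edgeR was under 0.05 for all 300 in both. Of all 12380 genes, 2136 were lower at that p for SFN and 2281 for TSA. The largest adjusted p of the 300 genes in edgeR was 0.104 for SFN and 0.107 for TSA. Without the replicate term, 298 genes were called lower under SFN (11.7% of all genes) and 295 under TSA (12.2%). With edgeR's likelihood ratio test 300 were called for SFN (13.9% of all genes) and 300 for TSA (15.3%), and with DESeq2 300 (16.2%) and 299 (16.9%).

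These calls depended on the setting. When genes were first restricted to a mean CPM over 10, as stated in the methods of the study, 153 of the 300 genes remained for testing. Then 0 were called for either inhibitor by the edgeR test, as were 0% of all genes tested. All 153 still had an unadjusted p under 0.05 by the edgeR test. Of all 5497 genes tested, 931 were lower at that p for SFN and 1000 for TSA. The lowest adjusted p of the 153 in edgeR was 0.0543 for SFN and 0.0556 for TSA. In the test of all 12380 genes, leaving out any one of control replicates 2 and 3 or SFN replicates 1 to 3 also left 0 calls for SFN. Leaving out TSA replicate 2 left 57, beside 148 of all 12380 genes called lower. For TSA, 0 were left without any one of control replicates 2 and 3, SFN replicates 1 and 3 or TSA replicates 2 and 3. Without SFN replicate 2, 105 were left, beside 393 of all 12380 genes called lower. In the comparisons that left 0 calls, 0 of all genes were called as well. There, 288 to 300 of the 300 genes had an unadjusted p under 0.05 by the edgeR test. Of all 12380 genes, 1369 to 2069 were lower at that p in the same comparisons. The selection had used these contrasts.

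The gene with the largest difference from control was HF086_001113. Its normalized values were 1.19, 2.73 and 0.433 in SFN larvae and 8.16, 0 and 0.0583 in TSA larvae, against 528, 654 and 1188 in control larvae. These values rest on 40, 24 and 13 reads under SFN, 211, 0 and 2 under TSA, and 15572, 15842 and 29416 in control. The mean was 1.45 ± 1.17 under SFN and 2.74 ± 4.69 under TSA, against 790.2 ± 350.3 in control (SD, n = 3 each). The groups were far from overlapping, but within TSA a single replicate held nearly all of the remaining reads. The fitted log2 fold change was -9.58 (SE 2.39) for SFN over control and -10.19 (SE 2.63) for TSA over control. The log2 ratio of the means was -9.09 for SFN and -8.17 for TSA. The fit and the means thus order the inhibitors differently, and the fitted falls are the larger. The adjusted p of edgeR in these comparisons, which the selection had used, was 0.0563 for SFN and 0.0590 for TSA.

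The next locus tag, HF086_001112, behaved alike. It had values of 0.891, 0.682 and 0.266 under SFN and 5.92, 0 and 0 under TSA, against 317, 357 and 722 in control. In the comparisons that the selection had used, the log2 fold change was -10.29 for SFN (SE 2.34, edgeR adjusted p = 0.0477). For TSA it was -10.23 (SE 2.50, edgeR adjusted p = 0.0543). The log2 ratios of the means were smaller falls, -9.57 for SFN and -7.88 for TSA. The level in TSA replicate 1 again exceeded that in every SFN library.

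HF086_014654 had 0.356, 1.82 and 0.133 under SFN and 4.72, 0 and 0.0291 under TSA, against 313, 371 and 684 in control. HF086_008366 had 0.178, 0.455 and 0.0666 under SFN and 4.18, 0 and 0 under TSA, against 251, 297 and 619 in control. HF086_000019 had 0.564, 1.82 and 0.0666 under SFN and 3.71, 0 and 0.0583 under TSA, against 251, 312 and 606 in control. In all 3 genes TSA replicate 1 was the highest treated library and the order of the controls was replicate 1, 2, 3.

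The remaining genes among the 8 with the largest difference repeated that order. HF086_009485 had 0.446, 1.14 and 0.0666 under SFN and 3.29, 0.0455 and 0 under TSA, against 180.2, 210.4 and 430.3 in control. HF086_008615 had 0.356, 1.02 and 0.133 under SFN and 3.09, 0 and 0.0583 under TSA, against 154, 183 and 467 in control. HF086_014868 had 0.238, 0.341 and 0.0666 under SFN and 2.13, 0 and 0 under TSA, against 141, 167 and 328 in control. HF086_014868 was the one of these 8 genes below the threshold in both comparisons with control, which the selection had used. Its edgeR adjusted p was 0.0402 for SFN and 0.0457 for TSA.

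**Figure D2:**
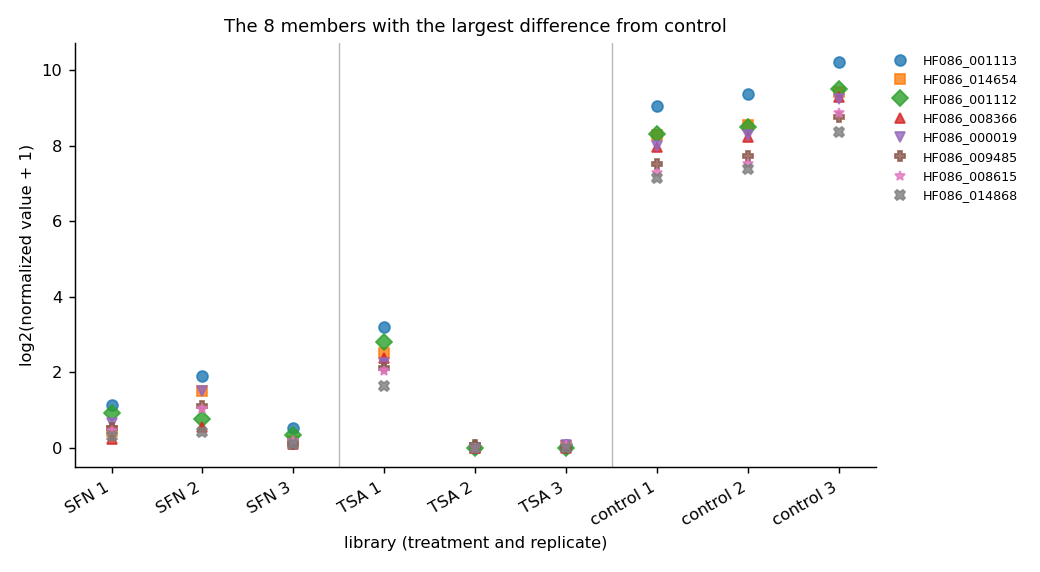
The 8 genes with the largest mean difference between control and treated libraries, as log2(normalized value + 1) in each library (1 symbol per gene, with SFN left, TSA in the middle and control right). All 8 lie near 0 in TSA 2 and TSA 3, at the top of the treated range in TSA 1, and far higher in the controls, where they increase in the order control 1, 2, 3.

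Some genes kept more of their transcripts in single libraries. HF086_001952, the most abundant of the 300 in control, had 5.41, 2.95 and 2.60 under SFN and 4.76, 94.2 and 0.525 under TSA, against 937, 734 and 1194 in control. Its 94.2 in TSA replicate 2, from 2072 reads, was the highest value of any of the 300 genes in any treated library. HF086_011332 had 0.772, 2.95 and 0.533 under SFN and 0.928, 5.18 and 2.83 under TSA, against 47.2, 56.9 and 109 in control. It retained the largest share of its control level under TSA, 4.19%. In the comparisons that the selection had used, its adjusted p by the edgeR test was 0.0283 for SFN and 0.0296 for TSA. With HF086_001113, these had the highest mean over the treated libraries. Relative to its control mean, HF086_001952 stood at 9.87% in TSA replicate 2. In SFN replicate 1, HF086_004677 stood at 11.7% and HF086_004676 at 11.0%, and HF086_004676 retained the largest share under SFN as a whole, 4.74%.

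Across the 300 genes the residual transcripts were spread unevenly over the treated libraries. TSA replicate 1 was the highest treated library for 220 genes, SFN replicate 2 for 63, SFN replicate 1 for 12 and TSA replicate 2 for 5, with 0 for the other libraries. TSA replicate 1 exceeded both other TSA replicates in 287 genes (95.7%), against 895 of the 3542 other genes (25.3%). Among genes nearer to the 300, it did so in 19 of the 37 left out by the limit of 300 (51.4%) and in 231 of the 308 that met the gap at a control mean under 20 (75%). Of the 164 genes with 0 reads in both TSA replicates 2 and 3, 161 had reads in TSA replicate 1. Even so the levels were low, and 80 genes exceeded a normalized value of 1 in TSA replicate 1 and 49 in SFN replicate 2, against 3 to 8 in the other SFN libraries and 3 to 5 in the other TSA libraries.

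In TSA replicate 1 the residue followed the control level. The median gene stood at 1.27% of its control mean there, with quartiles of 0.894% and 1.79%. Across the 300 genes, the log2 value was correlated with the log2 control mean, after adding the value of 1 read in that library. The Pearson correlation was 0.765 in TSA replicate 1. In SFN replicates 1 to 3 it was 0.455, 0.504 and 0.481, and in TSA replicates 2 and 3 it was 0.261 and 0.229. These correlations are across genes of the same libraries, which are not independent replicates, and libraries with few reads on these genes allow little correlation. The median gene stood at 0.161%, 0.544% and 0.0569% of its control mean in the SFN libraries and at 0% in TSA replicates 2 and 3.

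**Figure D3:**
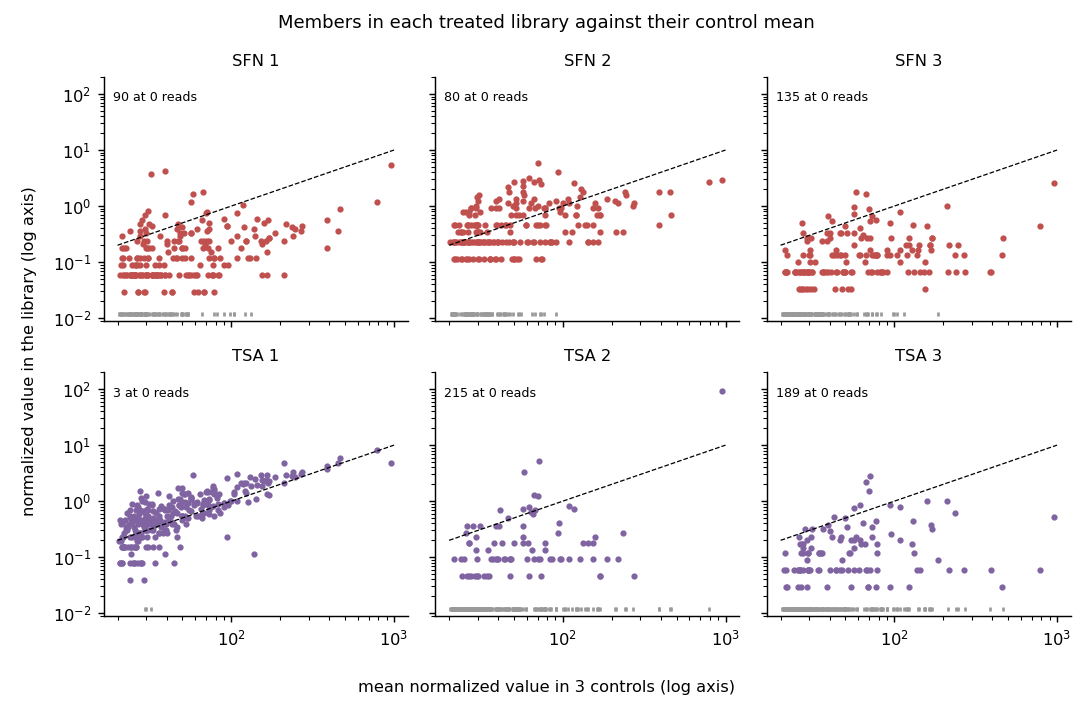
Normalized value of each of the 300 genes in each treated library (vertical, log axis) against its mean over the 3 controls (horizontal, log axis). Grey ticks at the bottom are genes with 0 reads and the dashed line marks 1% of the control mean. In TSA 1 the points follow the dashed line and 3 genes have 0 reads, whereas in TSA 2 and TSA 3 most genes are at 0 and HF086_001952 stands alone at 94.2 in TSA 2.

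The 300 genes also had similar ratios to each other among the controls, where no inhibitor was fed. The selection used the lowest control value of each gene, so genes with 1 low control were more readily left out of the 300 than of the others, and these ratios are a description. The median ratio of control replicate 3 to replicate 1 was 2.43, or 1.28 on the log2 scale, and the genes lay close around it (quartiles 1.17 and 1.39, SD 0.41). For control replicate 2 over replicate 1 the median log2 ratio was 0.31 (SD 0.38), and for replicate 3 over replicate 2 it was 0.96 (SD 0.36). Over the 3542 other genes the SD of these log2 ratios was 1.87, 1.98 and 0.83. Their medians were -0.02, 0.00 and -0.04, which TMM scaling sets near 0.

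Control replicate 3 was the highest control in 295 of the 300 genes (98.3%), against 750 of the 3542 other genes (21.2%). The order replicate 1, replicate 2, replicate 3 from low to high held in 272 genes (90.7%), against 518 (14.6%). Within 0.5 log2 units of both of their own median ratios to control replicate 1 lay 274 of the 300 genes (91.3%), and 122 of the others (3.44%) lay in that window, which was centred on the 300 genes. When reads were scaled by library size alone, control replicates 1 and 2 were level (median ratio 1.02), whereas control replicate 3 still exceeded replicate 1 with a median ratio of 2.40. Over the other genes this scaling gave a median log2 ratio of -0.29 for replicate 2 over replicate 1, -0.04 for replicate 3 over replicate 1 and 0.23 for replicate 3 over replicate 2. The order of replicates 1 and 2 thus depended on the TMM scaling, and the position of replicate 3 did not.

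Genes that met the same gap at lower abundance had nearby median ratios. They were found by the same gap in the same control libraries and are not independent of the 300, and the difference between the sets was not tested. There were 308 genes with a gap of at least 2 and a control mean under 20, which the selection had left out. Their median normalized values were 0, 0 and 0 under SFN and 0.155, 0 and 0 under TSA, against 7.53, 9.13 and 19.0 in control. Their median log2 ratio of control replicate 3 to replicate 1 was 1.28 (SD 0.33) and that of replicate 2 to replicate 1 was 0.25 (SD 0.32). Of these genes, 251 (81.5%) lay within the same window, and the order of the controls was replicate 1, 2, 3 in 244 (79.2%). The 37 genes left out by the limit of 300 gave medians of 1.35 and 0.40, and 30 of them (81.1%) lay within it. Among genes with a smaller gap, 56 (10.7%) of the 521 genes that were lower in every treated library by a gap of less than 2 lay within it, and their log2 ratio of control replicate 3 to replicate 1 had a median of 0.65 (SD 1.21). What the controls differed in was not tested, and the labels give no further property of these pools.

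**Figure D4:**
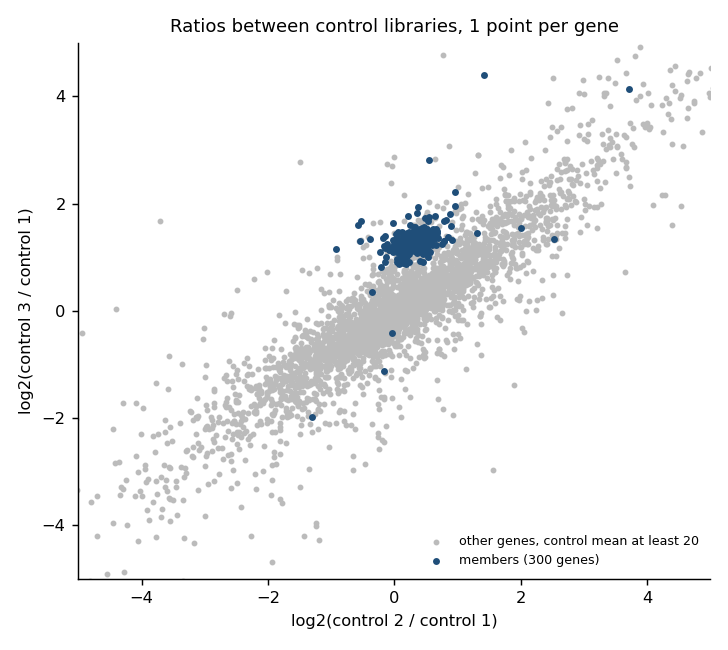
Log2 ratio of control replicate 3 to replicate 1 (vertical) against that of replicate 2 to replicate 1 (horizontal), 1 point per gene. The 300 genes (blue) form a compact group around 0.31 and 1.28, while 3407 other genes with a control mean of at least 20 (grey) stretch along a diagonal through 0. A further 132 grey genes lie beyond the axes.

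The 5 genes in which control replicate 3 was not the highest, singled out after their values were seen, were HF086_004067, HF086_004150, HF086_004676, HF086_004677 and HF086_007461. HF086_007461 had 0.327, 0.114 and 0 under SFN and 0, 0 and 0 under TSA, against 54.1, 21.8 and 13.7 in control. HF086_004150 had 1.66, 1.59 and 1.76 under SFN and 2.98, 3.37 and 0.233 under TSA, against 22.0, 88.2 and 64.0 in control. Both ran against the common order of the controls while meeting the gap.

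HF086_004676 and HF086_004677 have consecutive locus tags and shared another pattern. HF086_004676 had 4.31, 1.25 and 0 under SFN and 0.116, 0 and 0 under TSA, against 43.1, 41.7 and 32.4 in control. HF086_004677 had 3.74, 0 and 0.0333 under SFN and 0, 0 and 0 under TSA, against 40.8, 36.4 and 18.7 in control. Both were highest among treated libraries in SFN replicate 1 and lowest among the controls in replicate 3.

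More of the 300 genes than of the others had neighbouring locus tags. The tag directly before or after also belonged to one of the 300 genes in 55 of them (18.3%). This was so for 109 of the 3542 other genes with a control mean of at least 20 (3.08%) and for 383 of the 12080 other genes of the table (3.17%). The 55 genes formed 20 runs of 2 tags and 5 runs of 3. How the tags are ordered along the genome is not given in the sources used here, and near-identical neighbouring copies could share reads, which was not tested.

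The runs of 3 began at HF086_003935, HF086_005253, HF086_006277, HF086_014868 and HF086_016803. In the run starting at HF086_005253, the control values were 33.0, 44.4 and 80.05 for HF086_005253, 22.9, 25.8 and 49.1 for HF086_005254, and 47.6, 57.2 and 129 for HF086_005255. Their values in SFN and TSA libraries reached no more than 0.851, in TSA replicate 1 for HF086_005254. In the run starting at HF086_014868 the genes differed in abundance, with control means of 212, 24.2 and 36.9, and shared the order of the controls.

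The genes on either side of the gap threshold had near values. Just inside it lay HF086_004677 with a gap of 2.06, HF086_001516 with 2.38 and HF086_004150 with 2.39. Just outside lay HF086_000173 with 1.98, HF086_001589 with 1.96 and HF086_004127 with 1.91. HF086_001516 owed its narrow gap to a control of 8.92, beside controls of 117 and 156, since its values were 0.446, 0.909 and 0.133 under SFN and 0.232, 0.409 and 0.0291 under TSA. HF086_000173 kept far more transcript, with 12.8, 11.7 and 2.70 under SFN and 4.10, 1.64 and 6.18 under TSA, against 53.6, 64.6 and 98.6 in control. Over the 300 genes the gap had a median of 3.91, and it was at least 3 in 289.

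The limit of 300 genes divided near-equal values. The last genes kept had a mean difference of 4.22, as for HF086_003937, and the first left out had 4.21, as for HF086_006492. Of the 100 genes with the highest control means, 2 met the other terms. HF086_012939 had 63.4, 104 and 79.8 under SFN and 129, 2604 and 3.85 under TSA, against 13268, 65313 and 40154 in control. HF086_016480 had 67.3, 15.6 and 157.6 under SFN and 328, 568 and 15.5 under TSA, against 6667, 3740 and 4614 in control. Both ran highest in TSA replicate 2, as HF086_001952 did, and neither was highest in control replicate 3.

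The selection did not compare SFN with TSA, but it kept only genes that were low in every library of both, so the difference between the inhibitors was bounded by it. By the same edgeR test, 0 of the 300 genes differed between SFN and TSA after adjustment, as did 0% of all genes tested. At an unadjusted p under 0.05 there were 6, of which 3 had a higher and 3 a lower level under SFN, beside 3.23% of all genes. Other tools also called 0 of the 300 genes. The likelihood ratio test of edgeR called 0.444% of all genes and DESeq2 called 0.493%. At an unadjusted p under 0.05 they had 34 of the 300 genes (5.99% of all genes) and 11 (6.03%). The fitted log2 fold change of SFN over TSA had a median of -0.62 over the 300 genes (range -5.94 to 7.17) and was negative in 217. The median SE was 1.76. Being derived from the test statistic, the SE can be unstable where the fitted change is near 0, as for HF086_014654 (-0.05, SE 4.26). Differences of several-fold were within this error by that measure, and the compounds are not shown to act alike. Named genes with many treated reads lay on both sides of that median. The SE was 1.85 for HF086_001952 (2499 treated reads) and 2.44 for HF086_001113 (290). It was 0.658 for HF086_011332 (303) and 0.930 for HF086_004150 (282). How far depth and the spread between TSA replicates each set the error was not tested.

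The median depended on TSA replicate 1. Without that library, the median log2 fold change of SFN over TSA was 2.75, 24 genes were negative and 58 had an unadjusted p under 0.05, all with the higher level under SFN, beside 3.6% of all genes higher under SFN at that p. Still 0 of the 300 passed the adjustment. In that fit 164 of the genes had 0 reads in both remaining TSA libraries, so their fitted sizes depend on the prior count. Some, such as HF086_003936, also had 0 reads in every SFN library. Its fitted value of 0.40 (SE 3608) carries no information on direction, though it counts as not negative. Without SFN replicate 1 the median was 0.36, and without SFN replicate 2 it was -1.69. No direction between SFN and TSA therefore held over the replicates for the group of genes.

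**Figure D5:**
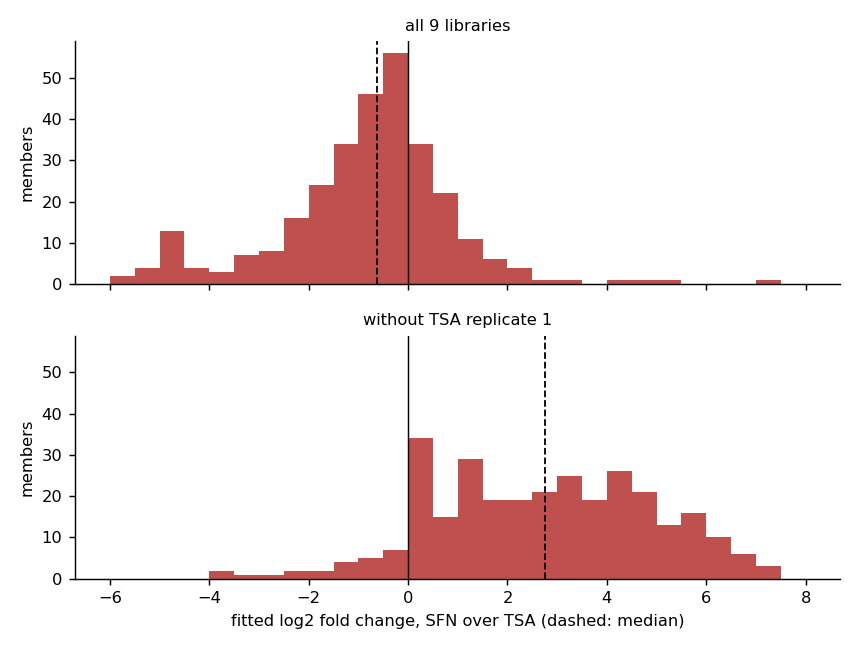
Number of the 300 genes (vertical) by fitted log2 fold change of SFN over TSA (horizontal) from all 9 libraries (top) and without TSA replicate 1 (bottom), with the median dashed. The median is -0.62 with all libraries and 2.75 without TSA replicate 1. In the bottom panel 164 of the genes have 0 reads in both remaining TSA libraries, so their fitted sizes depend on the prior count.

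The 6 genes with the lowest unadjusted p between SFN and TSA all had an adjusted p of 1 in edgeR. A positive fold change was fitted for HF086_004676, with a log2 fold change of 5.10 (SE 1.65), HF086_007461 with 4.64 (SE 1.39) and HF086_004677 with 7.17 (SE 2.47). Their unadjusted p by the edgeR test was 0.0180, 0.0218 and 0.0354. For HF086_007461 and HF086_004677 every TSA library had 0 reads, so the fitted size depends on the prior count. The other 3 had a negative fold change. HF086_003866 had 0.0594, 0 and 0 under SFN and 0.387, 0.136 and 0.117 under TSA, against 22.6, 25.8 and 55.3 in control. Its log2 fold change of SFN over TSA was -2.92 (SE 1.05), with an unadjusted p of 0.0281 by edgeR. HF086_000099 had 0 reads in every SFN library and 0.193, 0 and 0.117 under TSA, against 16.9, 21.4 and 41.7 in control. HF086_011677 likewise had 0 reads in every SFN library and 0.387, 0 and 0.117 under TSA, against 30.9, 42.2 and 85.8 in control.

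A limit of 3 reads over the SFN libraries puts HF086_011677 at least 1280-fold lower under SFN than in control and HF086_000099 at least 644-fold lower. Against TSA, where these genes had few reads themselves, the unadjusted p of edgeR was 0.0451 for HF086_011677 and 0.0397 for HF086_000099. None of the 6 kept an unadjusted p under 0.05 without TSA replicate 1, where the edgeR p ranged between 0.0542 for HF086_004676 and 0.145 for HF086_004677.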

How the data were processed

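Fat body RNA-seq libraries of *S*. *exigua* (3 SFN, 3 TSA, 3 control) were assigned to groups from the sample labels, and the *T*. *ni* libraries were not used. The authors trimmed reads with Trimmomatic 0.39, aligned them with HISAT2 2.2.1, counted reads per gene using featureCounts, and deposited these raw counts for 18477 genes. They also deposited a table of normalized signal for 12380 genes, in which counts were scaled by library size and a TMM factor. With 1 factor per library, 100% of these values came out as whole reads (tolerance 0.01) that matched the raw counts. The selection and all levels used this table, with a pseudocount of 1 on the log2 scale. The correlations with the control mean instead used the value of 1 read in each library as the pseudocount.

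Raw counts were tested in R 4.3.3 with edgeR 4.0.16 (TMM, quasi-likelihood test, Benjamini-Hochberg adjustment, threshold 0.05) over the 12380 genes and all 9 libraries, with treatment and replicate number as terms. The study states that triplicates were paired, which was read as this replicate block; whether that is meant is in doubt. Its stated filter, a mean CPM over 10, was an alternative, since it would leave 147 of the 300 genes untested. Other alternatives were other scalings, tests, filters and thresholds, and fits without each library. The model was tested on simulated data with changes added under SFN alone. Neither a loss under both inhibitors nor an effect of replicate was simulated, so this does not bear on the 300 genes. The genes and gene lists were chosen with earlier results of these data known. Genes named are the 8 with the largest difference from control, the 6 with the highest control mean, the 3 with the highest treated mean, the 6 with the lowest p between SFN and TSA, and those beside a threshold. A planned set with 0 reads in all 6 treated libraries held 0 genes. Each replicate is a separate pool of larvae. Scaling by library size alone, without TMM, moved the median log2 fold change over all genes to 0.70 for SFN over control and 0.28 for TSA over control, against -0.00 and -0.09 with TMM. Figures used matplotlib 3.10.9.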

Additional observations from a re-analysis of the deposited data

How the results depend on the processing

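The number of genes meeting the selection before the limit of 300 was 337. It was 543 with a control mean of at least 10 and 115 with at least 50, and 263 to 358 under a gap of 1.5 or 3, a pseudocount of 0.5, library-size scaling or with the 100 highest genes kept. Leaving out each library gave 240 (without control replicate 3) to 570 (without control replicate 1).

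Of the 300 genes, 243 were called lower under SFN than in control and 209 under TSA, beside 6.44% and 6.29% of all genes. With the filter of mean CPM over 10 there were 0 for each, as over all genes tested. With only the groups compared in the fit there were 0 for TSA, as over all genes. For SFN that fit gave 297, beside 826 of all 12380 genes. Without each library in turn the number ranged over 0 to 297 for SFN and 0 to 295 for TSA, the highest without TSA replicate 1 in both. Those highest counts stood beside 879 of all 12380 genes called lower for SFN and 711 for TSA. The other scalings and tests, and no filter, gave 224 to 300 calls for SFN and 188 to 300 for TSA. Over all genes tested, these settings called 697 to 2006 lower for SFN and 548 to 2094 for TSA.

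Without the replicate block the calls were 298 for SFN, 295 for TSA and 0 between SFN and TSA. Over all genes they were 11.7%, 12.2% and 0%. Deviations of same-numbered libraries from their group means correlated between -0.19 and 0.47 (median 0.01). Differently numbered libraries correlated between -0.42 and 0.36 (median -0.02, 18 pairs). The highest value belonged to SFN replicate 1 with TSA replicate 1, but the ranges overlapped widely. The data thus give no clear sign that the numbers pair the samples. The block was kept as a term because of how the methods of the study were read. Between SFN and TSA, 0 of the 300 genes were called under all 18 alternatives. Each of the 6 genes named kept its direction under every alternative that could be run for it. That is a description only, since the lowest p of this contrast chose the 6. HF086_007461 and HF086_004677 had 0 reads in every TSA library, and HF086_000099 and HF086_011677 in every SFN library. For these genes the direction could not reverse. The causes of the changes between settings were not tested. The median gene had 0 to 14 reads in a treated library, and the part of depth in the error of SFN over TSA was not tested.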
